A study of Rattus norvegicus with 4 samples.

Results

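The neurotrophins are a small family of secreted growth factors, and the genes described here are 3 ligands (Bdnf, Ntf3 and Ntf4), 2 receptor tyrosine kinases (Ntrk2 and Ntrk3), the shared receptor p75 (Ngfr) and the pro-neurotrophin receptor sortilin (Sort1). They were chosen by symbol: every probe set whose platform annotation gave exactly 1 of these 7 symbols was taken, which found 13 probe sets of 7 genes among 20826 single-symbol probe sets of 14217 genes.

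Neurotrophins are made as precursors that are cleaved to the mature ligand. Mature ligands bind Trk receptors, BDNF and neurotrophin 4 binding TrkB (the product of Ntrk2) and neurotrophin 3 binding TrkC (the product of Ntrk3), which signal through the adaptors Shc1, Frs2, Grb2 and Gab1 to the ERK and PI3K pathways and through Plcg1. All of them also bind p75, and uncleaved precursors bind p75 together with sortilin. In rodent ovaries TrkB and its ligands are known for oocyte survival and early follicle growth, and neurotrophin 3 for the start of growth of primordial follicles.

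The treated group was 2 samples of rat ovaries cultured with GDNF (glial cell line-derived neurotrophic factor, a ligand of the receptor Ret that is not a neurotrophin despite its name), and the control group was 2 samples cultured without it. All ovaries came from pups aged 4 days and spent 2 days on floating filters in medium that held, in both groups, insulin at 200 ng/ml, transferrin at 27.5 ug/ml, ascorbic acid at 0.05 mg/ml, 0.1% BSA, 0.1% albumax and antibiotics. Each sample was RNA from 6 to 10 pooled ovaries on 1 Affymetrix array. Both ovaries of a pup never entered the same group, so 1 pup could give an ovary to each, and the labels do not record which did. The GDNF dose and the rat strain are not given in the sources used here, and the labels do not say what a replicate number stands for, so a p-value here reflects only how far these samples spread, which may be technical.

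Values are MAS5 signals, linear brightness values as the authors deposited them, with nearly the same trimmed mean on each array. Median signal per array ran from 36.7 to 41.1, and beta-actin's 3′ probe set was 2.62 and 3.61 times as bright as its 5′ probe set in GDNF samples, against 3.76 and 3.34 times in control samples. Probe sets differ in how brightly they report the same amount of RNA, so levels are compared between samples and not between genes. The 5 probe sets of Ntrk2 had mean signals over the 4 arrays from 0.7 to 41.7 for 1 gene. Whether they report the same transcripts was not tested. A probe set was tested where its mean log2(signal + 1) reached the 40th percentile of all probe sets, a signal of about 21.4. Whether dimmer probe sets detected their transcript cannot be told from these values. Of the 13 probe sets, 4 were tested (Ngfr, both of Sort1 and 1 of Ntrk2) and 9 were dimmer than the filter, among them every probe set of the 3 ligands and of Ntrk3.

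**Figure D1:**
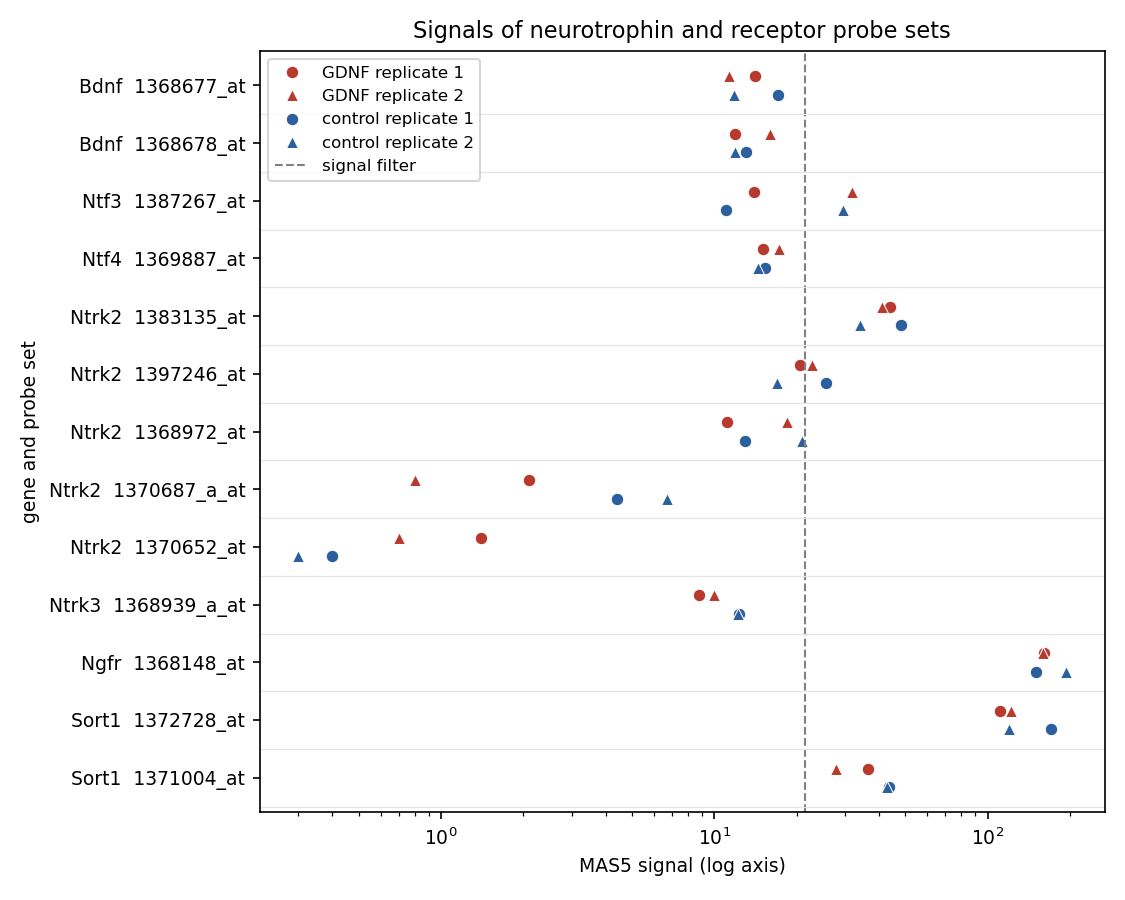
MAS5 signal of the 13 probe sets on a log axis, by gene and probe set, with GDNF samples (red) drawn above control samples (blue) in each row, circles for replicate 1 and triangles for replicate 2, and a dashed line at the signal filter of about 21.4. Ngfr and the brighter Sort1 probe set lie above 100 in all 4 samples, the ligands lie between 11 and 31.9, and Ntf3 separates by replicate number rather than by treatment.

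No gene of the family passed the test between GDNF and control ovaries, which covered 4 probe sets of 3 of the 7 genes. Over the family, 6 probe sets were higher and 7 lower by mean in GDNF samples (52.0% of all probe sets were lower), with a median log2 fold change of -0.10, beside -0.01 over all 31042 probe sets. The groups did not overlap for 1 probe set that was higher in GDNF (13.8% of all probe sets did this) and 3 that were lower (16.6% of all probe sets). In limma's fit over 18625 probe sets, 0.0% passed an adjusted p of 0.05, and 508 (2.73%) had an unadjusted p under 0.05, of which 0 belonged to this family. Without the filter, 0 of the 13 had an unadjusted p under 0.05. With 2 samples against 2, an exact two-sided permutation test of a single probe set cannot give a p below 0.333.

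Among the ligands, Bdnf, which encodes brain-derived neurotrophic factor, was dim and went opposite ways in its 2 probe sets. Probe set 1368677_at had signals of 14.1 and 11.3 in GDNF samples, against 17.1 and 11.8 in control samples (log2 fold change -0.16). Probe set 1368678_at had 11.9 and 16 in GDNF samples, against 13 and 11.9 in control samples (log2 fold change 0.14). The groups overlapped in both, and each direction turned when 1 sample was left out, to 0.09 without control replicate 1 for the first and to -0.06 without GDNF replicate 2 for the second.

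Ntf4, the gene of neurotrophin 4, moved least of the ligands when a sample was left out. It had signals of 15.1 and 17.2 in GDNF samples, against 15.3 and 14.4 in control samples (probe set 1369887_at, log2 fold change 0.11). The groups overlapped by a narrow margin, with GDNF replicate 1 just under control replicate 1. Leaving out 1 sample at a time gave log2 fold changes between 0.02 and 0.20.

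Ntf3, the gene of neurotrophin 3, varied more between replicates than between treatments. Its signals were 14.0 and 31.9 in GDNF replicates 1 and 2, against 11 and 29.6 in control replicates 1 and 2 (probe set 1387267_at, log2 fold change 0.21). Within each group the replicate 2 sample was the brighter, by 2.28 times in GDNF and by 2.69 times in control samples, and the replicate 2 samples lay above the filter's signal while the replicate 1 samples lay below it. The treatment difference was -0.46 without control replicate 1 and -0.35 without GDNF replicate 2, but 0.89 without control replicate 2 and 0.78 without GDNF replicate 1, so its direction rests on which samples are set against each other.

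The Ntrk2 probe set 1368972_at likewise had both replicate 2 samples above both replicate 1 samples. It had 11.1 and 18.4 in GDNF replicates 1 and 2, against 12.9 and 20.9 in control replicates 1 and 2 (log2 fold change -0.19, and 0.15 without GDNF replicate 1 or 0.14 without control replicate 2). Another 2, Bdnf 1368677_at and Ntrk2 1383135_at, had both replicate 1 samples above both replicate 2 samples. Over all probe sets, 16.8% had both replicate 2 samples on top and 23.4% had both replicate 1 samples on top, beside 2 and 2 of these 13.

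**Figure D2:**
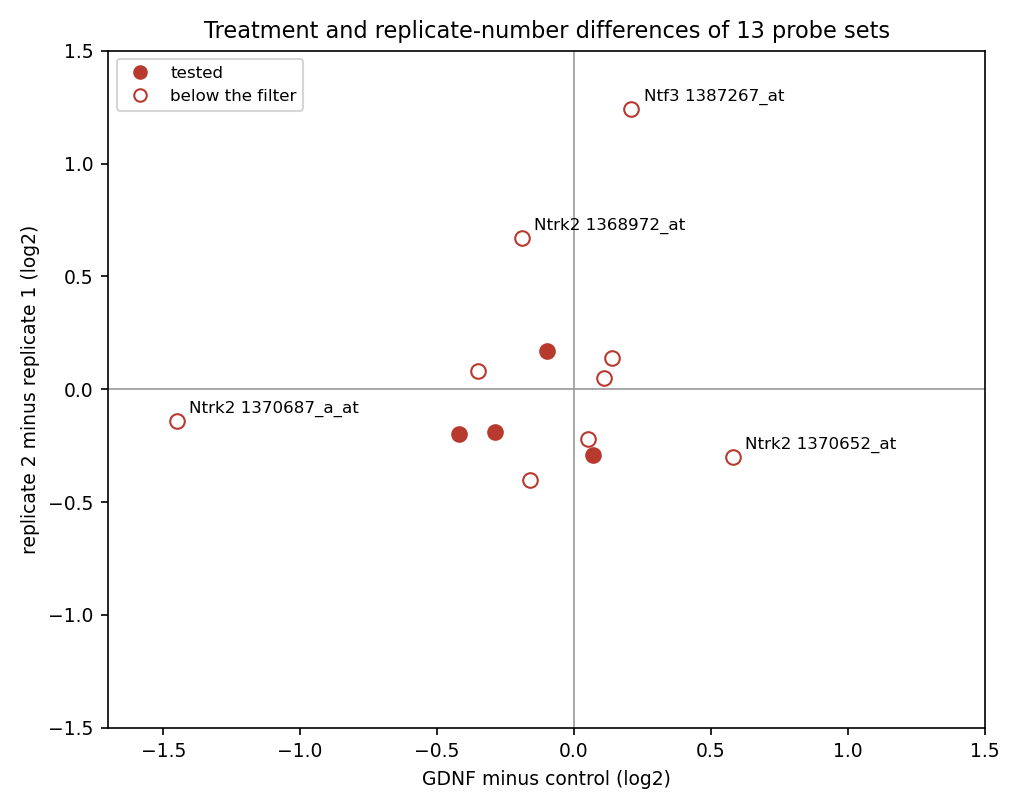
Each point is 1 of the 13 probe sets, with the log2 difference of GDNF minus control on the x axis and that of replicate 2 minus replicate 1 on the y axis; filled points were tested and open points lay below the filter. Ntf3 stands highest on the replicate axis at 1.24 with a treatment difference of 0.21, and Ntrk2 1370687_a_at stands farthest left at -1.45.

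Ntrk2, the gene of TrkB, gave no single direction over its 5 probe sets. The brightest, 1383135_at, had signals of 43.8 and 41.1 in GDNF samples, against 48.0 and 34.0 in control samples. The GDNF samples lay between the control samples, and the log2 fold change was 0.07 (SE 0.25, 95% interval -0.53 to 0.66, limma adjusted p = 0.999). That interval spans a fold of 0.694 to 1.59, so changes of that size were not resolved. Without control replicate 2 the value was -0.17.

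Probe set 1397246_at, with a mean just under the filter, also had its GDNF samples (20.6 and 22.7) between the control samples (25.6 and 16.9), at a log2 fold change of 0.05, which turned to -0.23 without control replicate 2 and to -0.01 without GDNF replicate 2. The remaining 2 were close to the lower end of the scale. Probe set 1370687_a_at had 2.1 and 0.8 in GDNF samples, against 4.4 and 6.7 in control samples, a log2 fold change of -1.45 that kept its direction whichever sample was left out (-1.84 to -1.06) but was -0.30 with a pseudocount of 16 in place of 1. In the fit without the filter it had an unadjusted p of 0.0541 and a limma adjusted p of 0.999. The opposite order was seen in 1370652_at, with 1.4 and 0.7 in GDNF samples, against 0.4 and 0.3 in control samples (log2 fold change 0.58, and 0.06 with a pseudocount of 16). Group means were 1.45 in GDNF samples against 5.55 in control samples for 1370687_a_at, and 1.05 against 0.35 for 1370652_at. The arrays had median signals of 36.7 to 41.1.

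Ntrk3, the gene of TrkC, had lower signals in GDNF samples without overlap, 8.8 and 10.0, against 12.3 and 12.2 in control samples (probe set 1368939_a_at, log2 fold change -0.35). The samples within a group lay closer together than the groups did. Leaving out 1 sample at a time gave -0.44 to -0.27, and a pseudocount of 16 gave -0.15. At this dim level the fit without the filter gave a standard error of 0.44, since it takes its expected spread from other probe sets of like brightness. In that limma fit Ntrk3 had an unadjusted p of 0.454 and an adjusted p of 0.999, and 0 of all 31042 probe sets passed.

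Ngfr, the gene of p75, differed between the groups by less than the control samples differed from each other. It had 160.5 and 159.0 in GDNF samples, against 150.8 and 194.2 in control samples (probe set 1368148_at). The GDNF samples lay between the control samples, and the log2 fold change was -0.10 (SE 0.16, 95% interval -0.48 to 0.28, limma adjusted p = 0.999). Its direction turned to 0.08 without control replicate 2. The interval corresponds to a fold of 0.716 to 1.22.

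Sort1 was the 1 gene of the family with more than 1 tested probe set, and both had a lower mean in GDNF samples. Sortilin sorts proteins between the Golgi, endosomes and cell surface and binds neurotrophin precursors at the surface. The dimmer probe set, 1371004_at, had 36.4 and 27.8 in GDNF samples, against 43.4 and 42.7 in control samples, with no overlap. GDNF replicate 2 was the lowest of the 4. Its log2 fold change was -0.42 (SE 0.25, 95% interval -1.01 to 0.16), with an unadjusted p of 0.130 and a limma adjusted p of 0.999, and it was -0.24 without GDNF replicate 2.

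The brighter Sort1 probe set, 1372728_at, had 111.4 and 121.8 in GDNF samples, against 170.9 and 119.5 in control samples. Here the groups overlapped, and control replicate 1 stood alone above the other 3 samples. The log2 fold change was -0.29 (SE 0.20, 95% interval -0.76 to 0.18, limma adjusted p = 0.999), and it was -0.04 without control replicate 1. The dimmer probe set did not share this dependence, with -0.41 without the same sample.

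Whole ovaries were measured, so fewer cells of a type and less RNA per cell cannot be told apart. Beside Sort1, all 7 tested markers of the surface epithelium had a lower mean in GDNF samples. Their summed signal was 5304 and 4745 in GDNF samples, against 6475 and 5444 in control samples. This is the same order of the 4 samples as in Sort1 1371004_at but not as in the brighter 1372728_at. That sum was mostly 1 bright gene, Krt19, with 3364.9 and 3236.1 in GDNF samples, against 4090.6 and 3632.0 in control samples. Most of the list did not share the order, since 4 of the 7 markers had both replicate 1 samples above both replicate 2 samples. Markers of smooth muscle and pericytes had lower means for 5 of 6 genes tested, with sums over the genes measured of 381 and 378 in GDNF samples, against 464 and 466 in control samples. Leukocyte markers had lower means for 7 of 9, with sums of 1570 and 1015 in GDNF samples, against 1378 and 1172 in control samples. Oocyte markers had higher means for 7 of 7, with sums of 5329 and 6696 in GDNF samples, against 4008 and 5015 in control samples. Granulosa cell markers had higher means for 6 of 7, with a median log2 fold change of 0.46. Their sums were 3685 and 3189 in GDNF samples, against 3209 and 2763 in control samples. In limma's fit 4 of the 7 had an unadjusted p under 0.05 (Amh, Inha and Nr5a2 higher, Kitlg lower), beside 2.73% of all probe sets tested. That count was 3 for oocyte markers, 1 each for surface epithelium, smooth muscle and pericyte, and theca and stroma markers, and 0 for leukocyte and endothelial markers. In each list 0 passed the adjusted threshold of that fit. Endothelial markers had lower means for 6 of 6, with a median of -0.11 and sums over the genes measured of 1291 and 1212 in GDNF samples, against 1382 and 1384 in control samples. Theca and stroma markers had higher means for 5 and lower means for 3 of 8. The part of these markers in the Sort1 values was not tested.

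Nerve tissue is a known site of p75 and Trk expression, and its markers were mixed in these ovaries. Of the 7 Schwann and glial cell markers measured, 4 (Erbb3, Foxd3, Gfap and Sox10) were under a signal of 20 in every sample, and of the 12 neuron markers measured, 6 (Chga, Dbh, Snap25, Stmn2, Syt1 and Tubb3) were. Sox10, a transcription factor of Schwann cells, had 9.6 and 2.8 in GDNF samples, against 3.6 and 2.5 in control samples (log2 fold change 0.66, with overlap). Gfap went the other way, with 1.7 and 3.3 in GDNF samples, against 12.4 and 5.6 in control samples, without overlap (-1.46). Foxd3 was also lower without overlap (-0.77), and Erbb3 was higher by mean with overlap (0.16). The glial calcium-binding protein S100b, which other cells also make, had 117.6 and 95 in GDNF samples, against 116.3 and 106.9 in control samples. The summed Schwann and glial signal was 799 and 708 in GDNF samples, against 777 and 739 in control samples, and that of the neuron list was 1951 and 1770 in GDNF samples, against 2277 and 1943 in control samples. Both sums overlapped between the groups, and each was mostly 1 bright gene. Pmp22, a myelin protein, had 627.1 and 568.0 in GDNF samples, against 607.1 and 578.0 in control samples, and the neuronal intermediate filament protein peripherin, Prph, had 1706.2 and 1501.2 in GDNF samples, against 2001.0 and 1675.8 in control samples. Th, the tyrosine hydroxylase of catecholamine synthesis, had 23.2 and 32.4 in GDNF samples, against 18.4 and 22.8 in control samples, without overlap (log2 fold change 0.40, SE 0.31, limma adjusted p = 0.999). It was the 1 neuron marker of 5 tested with a higher mean, and the list median was -0.07. Of the neuron markers below the filter, Stmn2 (1.04) was higher and Dbh (-1.34) and Nefl (-0.49) lower without overlap, on their brightest probe sets. Over all probe sets, 13.8% were higher and 16.6% lower without overlap.

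**Figure D3:**
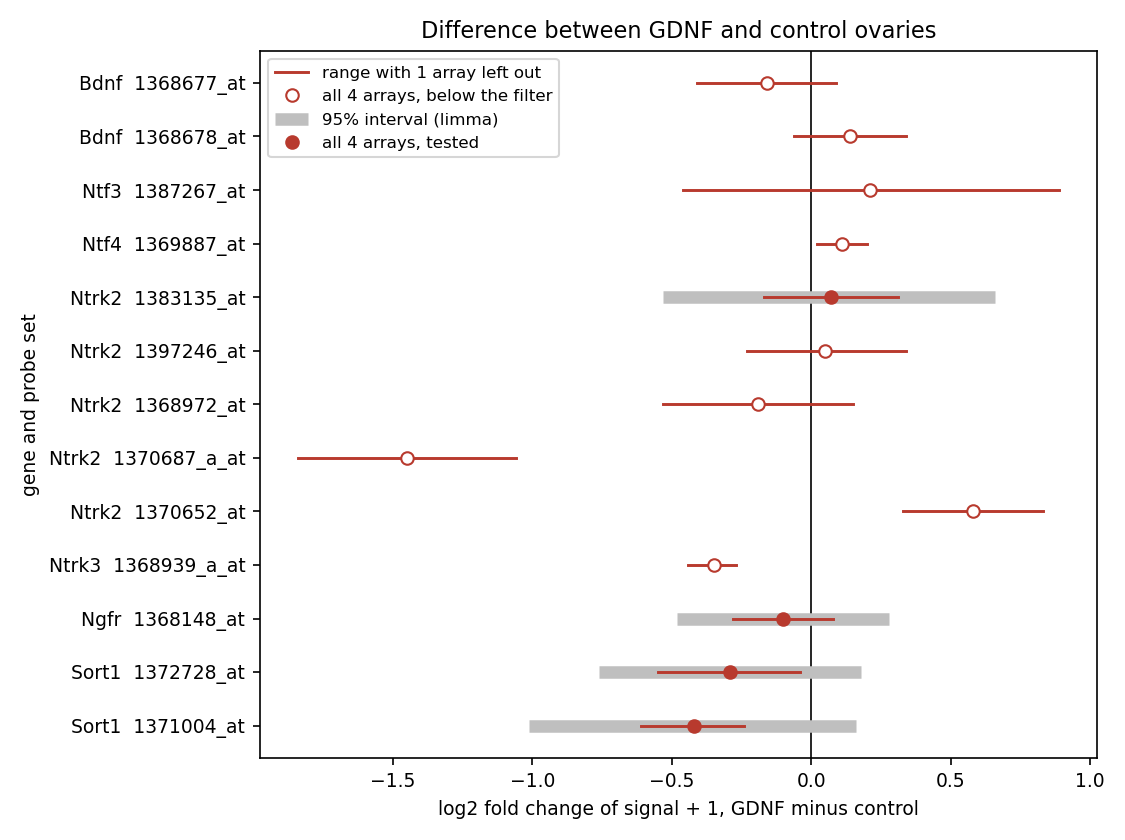
Log2 fold change of signal + 1, GDNF minus control, for the 13 probe sets: filled points were tested and carry limma's 95% interval as a grey bar, open points lay below the filter, and red lines span the values with 1 sample left out. All 4 intervals include 0, and the lines of 6 of the 13 probe sets stay on 1 side of it.

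The other genes of neurotrophin signalling were described by 4 lists, of which 50 genes were measured by a single-symbol probe set and 43 were tested, each on its brightest one. By mean, 17 were higher and 26 lower in GDNF samples (60.5% lower, beside 51.5% of all probe sets tested), with a median log2 fold change of -0.05, beside -0.01 for all. The groups did not overlap for 4 that were higher (13.4% of all probe sets tested did this) and 12 that were lower (16.6% of all probe sets tested). In limma's fit 0 of the 43 passed the adjusted threshold and 1 had an unadjusted p under 0.05.

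Sortilin's relatives had lower means in GDNF samples, as Sort1 did. This held for all 3 tested, with a median log2 fold change of -0.14. Sorcs3, a neuronal member of the sortilin family, had 28.5 and 33.7 in GDNF samples, against 40.3 and 49.5 in control samples, without overlap (log2 fold change -0.51, SE 0.25, limma adjusted p = 0.999). Sorcs2, which binds precursors together with p75, had 52.8 and 47.8 in GDNF samples, against 58.8 and 52.6 in control samples (-0.14, SE 0.20). Sorl1, a sorting receptor of endosomes, differed by less, with 271.5 and 230.9 in GDNF samples, against 247.9 and 271.0 in control samples (-0.05, SE 0.14, and 0.07 without GDNF replicate 2). Its other tested probe sets also had lower means, from -0.61 to -0.02, while 1 below the filter had 17.4 and 11.7 in GDNF samples, against 6.9 and 3.9 in control samples (1.30).

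The list of enzymes that process the precursors, with 1 inhibitor of them, had higher means for 4 and lower means for 4 of 8 genes tested. Furin, a convertase of the secretory pathway that cleaves them inside the cell, had 150.7 and 143.1 in GDNF samples, against 151.8 and 139.7 in control samples (log2 fold change 0.01). Plat, the tissue plasminogen activator that starts cleavage outside the cell, had 729.1 and 759.5 in GDNF samples, against 730.1 and 705.8 in control samples (0.05, SE 0.10). Its inhibitor neuroserpin, Serpini1, had 37.1 and 34.6 in GDNF samples, against 48.0 and 41.6 in control samples, without overlap (-0.31, SE 0.23), though a dimmer probe set had 0.05.

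The convertases Pcsk5 (-0.20, SE 0.21) and Pcsk6 (-0.12, SE 0.11) were the next lowest, both without overlap, though a dimmer tested probe set of Pcsk5 had 0.06 with overlap, and Pcsk7 had 0.05 (SE 0.20). The matrix protease Mmp7 varied most, with 377.3 and 20.9 in GDNF replicates 1 and 2, against 173.7 and 33.2 in control replicates 1 and 2. It followed the replicate numbers, in the direction opposite to Ntf3, and its treatment value of 0.24 had a standard error of 1.27, with -1.82 without GDNF replicate 1 and 2.29 without GDNF replicate 2.

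Adaptors and effectors of the Trk receptors went both ways by mean, with 8 higher and 9 lower of 17 tested. Shc1, an adaptor that docks on the active receptor, had 455.5 and 489.4 in GDNF samples, against 549.7 and 543.0 in control samples, without overlap (log2 fold change -0.21, SE 0.11). Other low values were those of the adaptor Crkl (-0.24, SE 0.26) and the kinase ERK5, Mapk7 (-0.17, SE 0.22). Grb2, which links Shc1 to the Ras pathway, had 313.1 and 337.2 in GDNF samples, against 284.0 and 311 in control samples (0.13, SE 0.12), though its other tested probe set had -0.05. The docking protein Gab1 had 392.0 and 382.6 in GDNF samples, against 360.6 and 356.9 in control samples (0.11, SE 0.11). The transcription factor Creb1 had 0.23 (SE 0.25), and -0.12 without GDNF replicate 1. Crkl likewise turned, to 0.06 without GDNF replicate 2. Each of these genes had a limma adjusted p of 0.999.

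Partners of p75 had lower means for 10 and higher means for 5 of 15 tested, with a median of -0.05. Ptpn13, a phosphatase that binds the tail of p75, had 402.0 and 417.3 in GDNF samples, against 542.6 and 481.1 in control samples, without overlap (log2 fold change -0.32, SE 0.11). It was the 1 gene of the 43 with an unadjusted p under 0.05 (0.0268, limma adjusted p = 0.999). Irak1, a kinase of p75 and interleukin 1 receptor signalling, had 671.4 and 628.2 in GDNF samples, against 816.4 and 721.0 in control samples (-0.24, SE 0.11), and -0.49 in its dimmer probe set. Magi1, a scaffold protein, had -0.22 (SE 0.15).

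On the higher side, the stress kinase Mapk8 (JNK1) had 294.6 and 305.6 in GDNF samples, against 263.9 and 258.9 in control samples, without overlap (log2 fold change 0.20, SE 0.12), with 0.12 and 0.21 in its other tested probe sets. The p75-binding zinc finger protein Prdm4 (0.21, SE 0.30) and the adaptor kinase Ripk2 (0.20, SE 0.20) overlapped between groups, and both turned with 1 sample left out, Prdm4 to -0.09 without control replicate 1 and Ripk2 to -0.04 without GDNF replicate 1. Each of these had a limma adjusted p of 0.999.

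**Figure D4:**
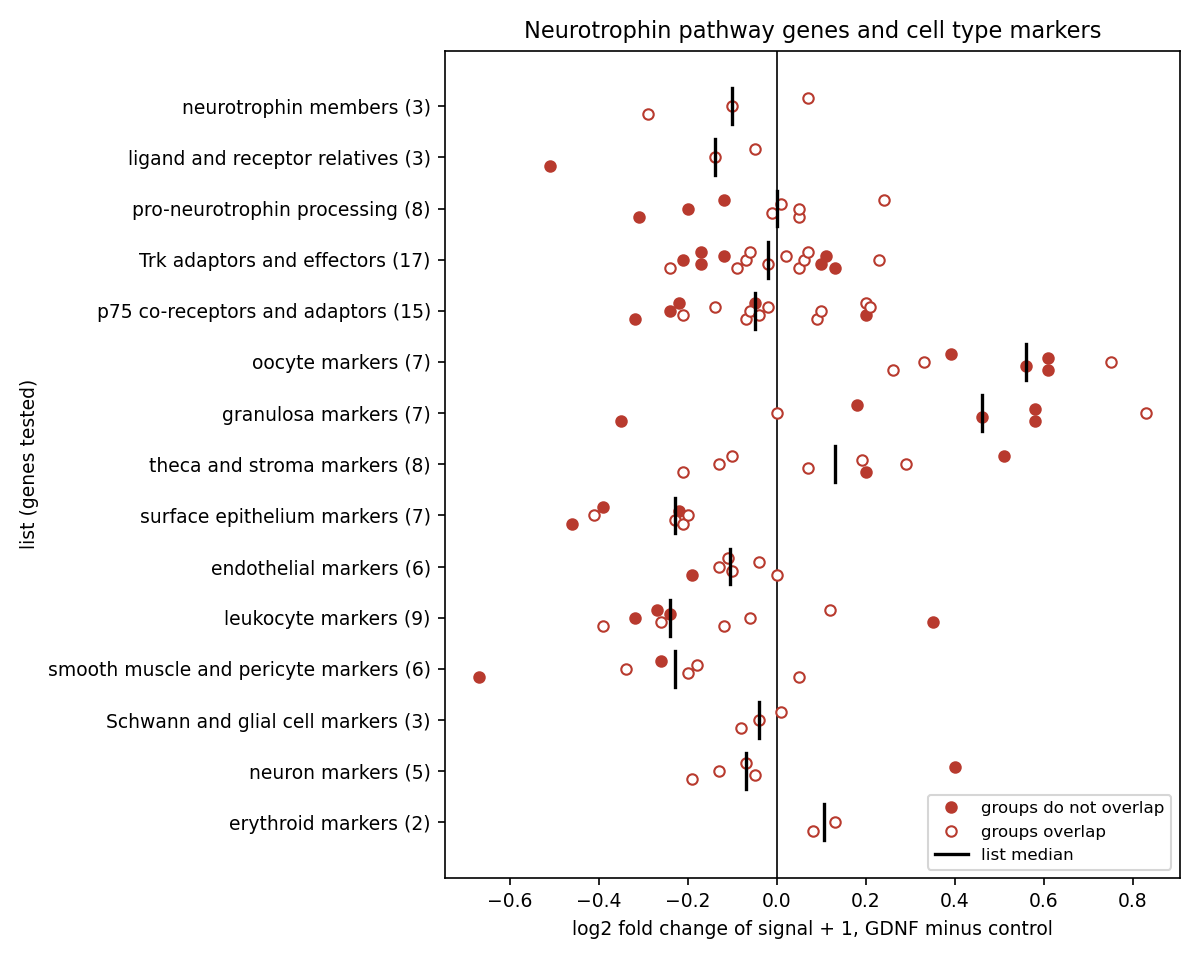
Log2 fold change of signal + 1, GDNF minus control, for genes of the family, of the 4 pathway lists and of cell type markers, 1 point a gene on its brightest tested probe set, filled where the groups do not overlap, with a black bar at each list's median. The pathway medians lie between -0.14 and 0.00, while oocyte markers have 0.56 and surface epithelium markers -0.23.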

How the data were processed

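The file holds MAS5 signals, linear intensities that the authors made with MAS5, as the submitters' processing notes say (no version given), for 31099 probe sets on 4 arrays. Samples were grouped by title, since the treatment text deposited for the GDNF samples repeats the control wording. The 57 Affymetrix control probe sets were removed, leaving 31042. Symbols came from GEO's platform annotation (20826 probe sets with 1 symbol, 436 with several and 9780 unnamed here). Entrez identifiers of 20758 were found in the RefSeq table of GRCr8, and 0 symbols changed.

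Signals were converted to log2(signal + 1), which understates changes of dim genes. The 18625 probe sets at or above the 40th percentile of mean were fitted with limma 3.58.1 in R 4.3.3 (lmFit, eBayes with trend), with group as the only term, two-sided, with Benjamini-Hochberg adjustment over all of them and a threshold of 0.05. The fit was run on simulated data of independent samples with changes planted in 200 probe sets, which does not show what it could detect in these genes. Number of arrays limits the precision. Alternatives were a pseudocount of 16, other filters, quantile normalization, median centring, no trend, the replicate number as a block and leaving out each sample. Detection calls were not used here. Members and gene lists were chosen with earlier results of these data known. Named genes were all member probe sets, Plat, and up to 3 highest and 3 lowest tested genes of each pathway list. Furin, Sox10, S100b, Pmp22, Prph, Th and the other cell type markers given with values or directions were named after their values were seen. Genes of like pattern were not sought, since 4 samples are too few for a correlation.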

Additional observations from a re-analysis of the deposited data

How the results depend on the processing

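The 4 tested probe sets of the family had 42 values under the alternatives, of which 0 passed the threshold (lowest limma adjusted p 0.503). The direction turned in 2: without control replicate 2, Ngfr had 0.08 and Ntrk2 1383135_at -0.17. With each sample left out in turn, Ngfr ran from -0.28 to 0.08 and Ntrk2 1383135_at from -0.17 to 0.31. Of 72 values of the 9 dim probe sets, 3 moved by over 1 SD of the replicates, all with a pseudocount of 16 (Ntrk2 1370687_a_at -0.30, Ntrk2 1370652_at 0.06 and Ntrk3 -0.15), which shrinks differences of dim probe sets. With 2 samples a group, leaving 1 out cannot move a value by over that SD, and dropping the filter does not change it. The count of 3 therefore does not show that the other values were stable. With samples left out, 4 of the 9 kept their direction, and Ntf3 ran from -0.46 to 0.89. The number of tested family probe sets with a lower mean was 3, with 7 under no filter, since all 13 are then tested, and 2 under a filter at the 60th percentile. The count over all 13 was 7, and 6 to 10 with samples left out. The list medians with samples left out ran from -0.22 to -0.07 for the relatives of sortilin, -0.18 to 0.07 for processing enzymes, -0.05 to 0.05 for Trk adaptors and -0.07 to -0.04 for p75 partners, whose median was -0.07 with probe sets of a gene averaged. The cause of these shifts was not tested.

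With the replicate number as a block, 8 probe sets of 18625 passed, against 0 without it (508 at an unadjusted p under 0.05), and 0 of them belonged to the family, where the lowest adjusted p was 0.788 (Sort1 1372728_at). Deviations of same-numbered samples from their group means correlated at r = 0.323 across probe sets, which are not independent. Signals of same-numbered samples correlated at 0.983 and 0.986, those of the control samples at 0.984 and those of the GDNF samples at 0.971. With 2 pairs and no label on what the numbers share, these values do not show that they pair the samples. The fit with the block leaves 1 residual degree of freedom per probe set. In the cell type lists 1 gene passed that fit, the oocyte marker Gdf9 (limma adjusted p = 0.0469).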
